A study of Mus musculus with 9 samples.

Results

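CTCF peaks that were called in pre-B cells and had no counterpart in pro-B cells cultured with IL7 were examined. They are the peaks of the pre-B CTCF list on chromosomes 1 to 19 that shared not a single base with any peak of the longer CTCF list from the cultured pro-B cells. There were 1656 such peaks among 41165 pre-B CTCF peaks on these chromosomes, or 4.02%. The number depended on the rule, with 5125 (12.4%) if a peak of cultured cells had to cover 50% of the pre-B peak and 6270 (15.2%) if the list of cultured cells was limited to its highest-scoring peaks, as many as the pre-B list holds. They are called unmatched peaks here, and the other 39509 pre-B CTCF peaks, which overlapped a peak of the cultured pro-B cells by at least 1 bp, are called matched peaks. The unmatched peaks were selected on the positions of called peaks in both CTCF lists, so their number, score and width are given as a description.

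The study profiled CTCF and the cohesin subunit Rad21 by ChIP-seq in B and T lymphocyte precursors of C57BL/6 mice and made 1 library of each kind. Pro-B cells came from bone marrow of RAG1-/- mice, 6 to 14 wk old and of both sexes, and were cultured with IL7 for 7 days. Pre-B cells came from bone marrow of mice of the same ages that were RAG-/-µ+, deficient for RAG and bearing a rearranged IgM transgene, which is itself immunoglobulin heavy chain sequence. DN thymocytes were from Rag1-/- mice of 4 to 8 wk and DP thymocytes from Rag1-/- mice of the same ages that carried a rearranged TCRb transgene. All of these animals lacked RAG activity, so their own antigen receptor loci were not rearranged, and both transgenic lines pass a developmental block through a single receptor chain. For CTCF, 42250 peaks had been called in pre-B cells and 71080 in the cultured pro-B cells, and for Rad21, 30488, 9701 and 36743 in pre-B, DN and DP cells. The lowest score kept was 66.97 for pre-B CTCF, 50 for CTCF in cultured pro-B cells, and 59.74, 86.45 and 57.72 for Rad21 in pre-B, DN and DP cells. With no replicate library, no test between cell types was possible, and read numbers are unknown for all 5 lists. Peak lists hold no expression values, so the labelled cell types could not be checked against marker genes. Cell stage and culture differ together between both CTCF libraries and cannot be told apart.

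CTCF is a zinc finger protein that binds a long, directional DNA motif. The ring-shaped cohesin complex, of which Rad21 is a subunit, moves along chromatin and is halted at bound CTCF, and pairs of such sites form the anchors of chromatin loops. In lymphocyte precursors these loops shape the antigen receptor loci and the regulatory domains of many other genes, and cohesin is also found at active promoters and enhancers away from CTCF. IL7 is the cytokine on which mouse pro-B cells depend, and its withdrawal accompanies the passage to the pre-B stage.

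The letters under the strongest unmatched peaks are shown first, because they differ in how near they come to the 12-base CTCF consensus that the study derived with Homer. Each stretch was read from the NCBIM37 (mm9) assembly on the strand of the match, 5′ to 3′, and capitals mark the best match. The first 6 are the highest-scoring unmatched peaks that held the consensus with at most 2 mismatches and in which at least 90% of 36-base words occurred once in the genome.
Lmo4, intergenic, chr3:143612164-143612263, plus strand: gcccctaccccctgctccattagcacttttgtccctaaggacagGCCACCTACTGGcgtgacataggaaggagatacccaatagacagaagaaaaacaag
Esrra, promoter, chr19:6995808-6995907, plus strand: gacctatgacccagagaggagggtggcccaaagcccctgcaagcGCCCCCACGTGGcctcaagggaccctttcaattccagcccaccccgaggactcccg
Cxcr7, intergenic, chr1:92142195-92142294, plus strand: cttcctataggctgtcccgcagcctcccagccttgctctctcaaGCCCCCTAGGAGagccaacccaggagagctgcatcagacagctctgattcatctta
Heg1, intron, chr16:33736978-33737077, plus strand: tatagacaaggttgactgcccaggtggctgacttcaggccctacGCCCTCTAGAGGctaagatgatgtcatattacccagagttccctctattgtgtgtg
Zfpm1, intron, chr8:124822935-124823034, minus strand: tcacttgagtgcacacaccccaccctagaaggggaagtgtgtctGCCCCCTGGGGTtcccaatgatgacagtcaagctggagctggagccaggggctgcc
Elk3, intergenic, chr10:92816473-92816572, plus strand: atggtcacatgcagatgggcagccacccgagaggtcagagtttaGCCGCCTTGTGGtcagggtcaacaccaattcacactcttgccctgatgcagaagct

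The next pair comes from the highest-scoring unmatched peaks in which the best letters had 3 mismatches, so that they did not count as holding the consensus.
Mef2c, intron, chr13:83748472-83748571, plus strand: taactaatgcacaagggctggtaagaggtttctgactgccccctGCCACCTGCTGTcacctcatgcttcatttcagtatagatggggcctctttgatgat
Fstl3, exon, chr10:79244914-79244943, minus strand: cattgcagcTCCCCCTTTTGGcttccttga

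The last 3 are promoters of unmatched peaks with the ETS letters CCGGAAGT within 200 bp around the peak midpoint, shown because these letters were held by 1.87% of unmatched peaks and 0.52% of all pre-B CTCF peaks. They were chosen after their values were seen.
Smcr7l, chr15:80064399-80064498, plus strand: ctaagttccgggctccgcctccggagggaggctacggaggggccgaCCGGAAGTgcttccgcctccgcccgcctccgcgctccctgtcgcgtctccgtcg
Rps18 and Vps52, chr17:34092667-34092696, minus strand: agaagcaatttCCGGAAGTggacctccggg
Krr1, chr10:111409808-111409837, minus strand: ttccggcggccCCGGAAGTggaactgttct

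The unmatched peaks lay at the weak end of the pre-B CTCF list. The score is the peak caller's own measure of how confidently a peak was called over the input, and it grows with read depth. Weak and strong refer here to this score alone. When the list was cut by score into 10 steps of equal size, the numbers of unmatched peaks from the lowest step upward were 776, 477, 240, 102, 41, 13, 6 and 1, and the highest 2 steps held none. In 5 bins of equal size, bin 1, the lowest, held 1253 unmatched peaks among 8232 peaks (15.2%) and bin 2 held 342 among 8234 (4.15%). Bin 3 held 54 and bin 4 held 7, and bin 5, the highest, held 0 of 8233, which allows a share of up to 0.0364%. Bin 1 thus contained 75.7% of all unmatched peaks. Their median score was 87.8, with quartiles of 75.3 and 112, against a median of 317 over all pre-B CTCF peaks. The median unmatched peak stood above 10.9% of the list, and the highest above 72.7%. Where a peak of cultured cells had to cover 50% of the pre-B peak, bin 1 held 1851 of 5125 unmatched peaks. The median then stood above 32.5% of the list. Unmatched peaks were also narrower, with a median width of 469 bp against 617 bp over the list, but at like score the widths were similar, with medians of 456 bp for unmatched and 446 bp for matched peaks of bin 1.

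**Figure D1:**
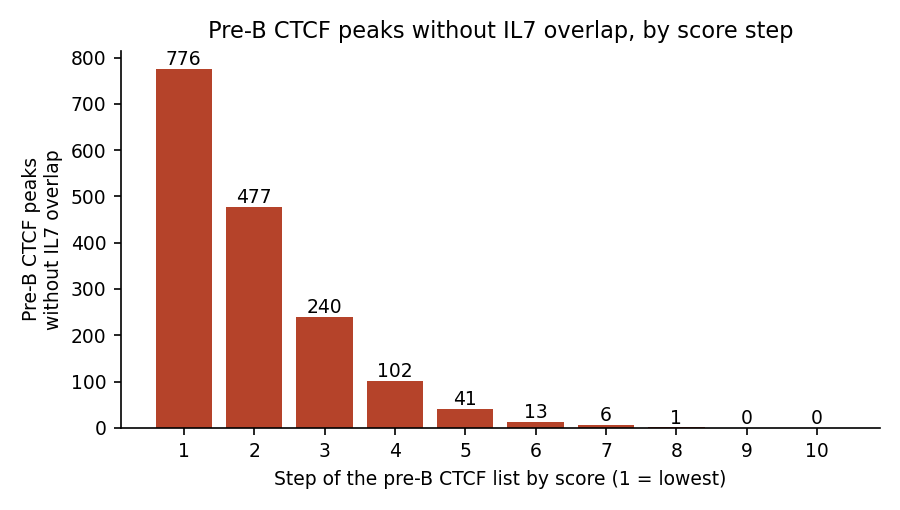
Bars give the number of unmatched peaks (y axis) in each of 10 equal steps of the pre-B CTCF list ordered by score (x axis, 1 is the lowest). Numbers fall from 776 in step 1 to 1 in step 8, and steps 9 and 10 hold none.

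Unmatched peaks lay at a wide range of distances from the nearest CTCF peak of the cultured pro-B cells. The rule excludes overlap, and no reference distance was computed. The median distance was 5471 bp, with quartiles of 1564 and 13005 bp. A peak of the cultured cells lay less than 1 kb away for 307 unmatched peaks (18.5%), 1 to 10 kb away for 827 (49.9%), 10 to 100 kb away for 504 (30.4%) and farther for 18 (1.09%). At the edge of the rule, 3 promoter peaks abutted a peak of the cultured cells without sharing a base: those of Ptger4, a prostaglandin receptor gene (score 69.5), Anp32a (80.3) and Fem1b (97.1). Just beyond the edge, the peaks nearest to Rpa2 (98.6) and Olfr374 (67.3) shared 4 bp with a peak of the cultured cells and the peak at Mmaa (80.0) shared 14 bp, so these 3 were counted as matched.

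The 10 highest-scoring unmatched peaks stood between 57.9% and 72.7% of the way up the pre-B CTCF list, in score bins 3 and 4, and all 10 overlapped a Rad21 peak in pre-B cells, as did 69.9% and 90.7% of matched peaks of these bins. The strongest, with a score of 673 and a width of 948 bp, was intergenic at chr3:143611807-143612754, 245027 bp from the start of Lmo4, which encodes a LIM-only transcriptional cofactor. Its Rad21 peak stood above 80.2% of the pre-B Rad21 list, no Rad21 peak was called there in DN or DP cells, and the nearest CTCF peak of cultured pro-B cells was 23191 bp away. The second (508) lay in an intron of Mef2c, a MADS-box transcription factor gene used in B-cell development, at chr13:83748292-83748722 and 84315 bp from its start. There the Rad21 peak stood above 87.6% of the pre-B list, again with none in either thymocyte library, and the nearest CTCF peak of cultured cells was 36886 bp away. Both peaks were made up wholly of 36-base words found once in the genome.

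The next peaks by score lay in an exon where Fstl3, encoding a binder of activin, and Prss57 overlap (494), and in an exon of Rilpl1 (479). They were followed by the promoter of Esrra (469), a nuclear receptor gene that controls mitochondrial genes, and by the Igh locus (453). The remaining 4 of the 10 lay in intergenic sequence nearest to Dtl (452), at the promoter of Unc93b1 (439), which carries endosomal Toll-like receptors, and in intergenic sequence nearest to Arid5b (422) and Edaradd (413). Of the 10, those near Esrra and Dtl also overlapped Rad21 in DP cells, and none overlapped Rad21 in DN cells. Outside these 10, the strongest unmatched peaks with Rad21 in pre-B cells alone were at the promoter of Oxa1l (407) and in an intron of Ano6 (358). The Fstl3 and Esrra peaks had a CTCF peak of cultured pro-B cells 384 and 136 bp away.

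Rad21 was called in pre-B cells at 583 of the 1656 unmatched peaks, or 35.2% (95% exact Clopper-Pearson interval 32.9 to 37.6), beside 63.7% over all pre-B CTCF peaks. Intervals here cover counting error only. In DP cells Rad21 was called at 373 unmatched peaks, or 22.5% (20.5 to 24.6), beside 52.1% over the list, and in DN cells at 12, or 0.725% (0.375 to 1.26), beside 22.2%. Counting a pre-B peak as matched only if a peak of cultured cells covered 50% of it raised these shares to 57.0%, 43.7% and 15.3% in pre-B, DP and DN cells. Since the unmatched peaks were mostly weak and Rad21 overlap rises with CTCF score, matched peaks of like score are the closer comparison. In score bin 1, Rad21 in pre-B cells overlapped 29.3% of unmatched peaks (26.8 to 31.9) and 19.2% of matched peaks (18.3 to 20.1). The share in DP cells was 21.6% (19.4 to 24.0) against 19.9% (19 to 20.9), with overlapping intervals, and that in DN cells was 0.718% (0.329 to 1.36) against 2.74% (2.37 to 3.15). Within this bin the unmatched peaks had the lower scores, with a median of 80.0 against 86.5.

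The same order was seen in score bin 2 for pre-B and DN cells. Rad21 in pre-B cells overlapped 48.2% of unmatched (42.8 to 53.7) and 39.1% of matched peaks (38.0 to 40.2), and Rad21 in DN cells overlapped 0.585% (0.0709 to 2.10) and 5.56% (5.07 to 6.09). The DP shares were 26.0% (21.4 to 31.0) and 30.3% (29.3 to 31.4). In bin 3, with 54 unmatched peaks, pre-B Rad21 overlapped 81.5% (68.6 to 90.8) against 69.9% (68.9 to 70.9) and the intervals met, while DP Rad21 overlapped 20.4% (10.6 to 33.5) against 48.6% (47.5 to 49.7). Of the 7 unmatched peaks in bin 4, 7 had Rad21 in pre-B cells and 2 in DP cells, where matched peaks of that bin had 90.7% and 72.7%. No test of these differences was run, as each share rests on 1 library, and the pre-B CTCF and pre-B Rad21 lists were called against 1 shared input, whose part in the pre-B shares was not tested.

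**Figure D2:**
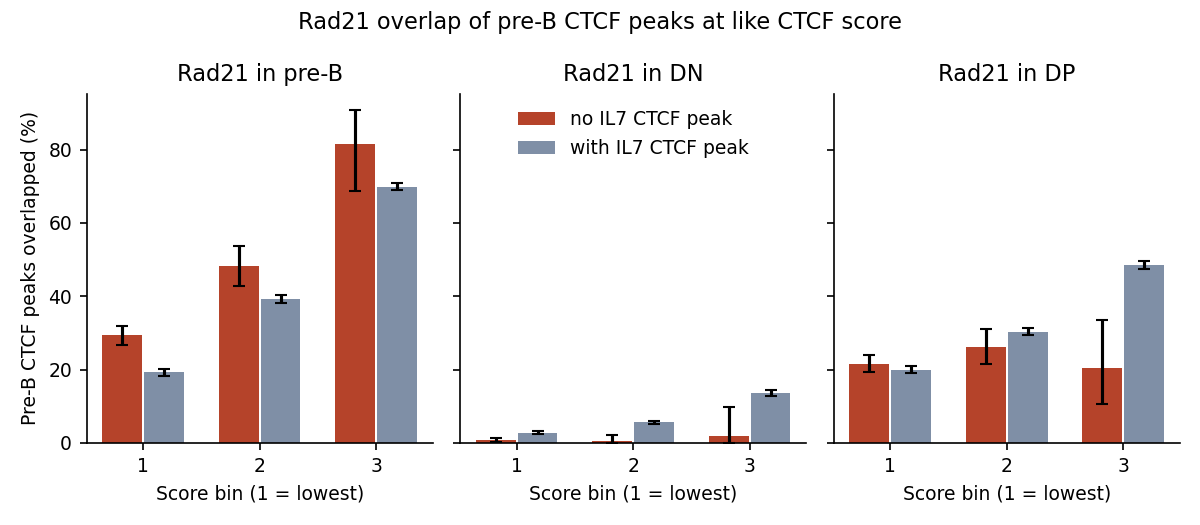
Bars give the percentage of pre-B CTCF peaks overlapped by a Rad21 peak (y axis) in pre-B, DN and DP cells, for unmatched (red) and matched (grey) peaks of score bins 1 to 3 (x axis), with exact 95% intervals. Red bars are the higher ones in pre-B cells (29.3% against 19.2% in bin 1) and the lower ones in DN cells, and in DP cells the bars are near each other in bin 1 and apart in bin 3 (20.4% against 48.6%).

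The lengths of the Rad21 lists bear on the order of the cell types. When each Rad21 list was limited to the 9701 highest-scoring peaks, the number in the DN list, overlap with unmatched peaks was 31 in pre-B cells (1.87%), 12 in DN cells and 55 in DP cells (3.32%), so the order of pre-B and DP turned. At this length, in score bin 1, the pre-B share was 0.798% of unmatched (0.383 to 1.46) and 0.401% of matched peaks (0.267 to 0.579), the DN share stayed at 0.718% and 2.74%, and the DP share was 3.19% (2.29 to 4.32) and 2.94% (2.55 to 3.36). Most of the pre-B Rad21 peaks at unmatched sites were therefore outside the top 9701 of their list.

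Taken by pattern, 895 unmatched peaks (54.0%) had no Rad21 peak in any of the 3 cell types, beside 29.1% over all pre-B CTCF peaks. Rad21 was called in pre-B cells alone at 387 (23.4%, beside 17.8% over the list), in DP cells alone at 176 (10.6%, beside 6.61%), and in both but not DN at 186 (11.2%, beside 24.4%). Rad21 in all 3 cell types was seen at 9 unmatched peaks (0.543%, beside 20.7%). In score bin 1, pre-B alone was the pattern of 19.2% of unmatched peaks (17.0 to 21.4) and 11.1% of matched peaks (10.3 to 11.8), and DP alone that of 11.3% (9.63 to 13.2) and 11.3% (10.54 to 12.04). A complete lack of Rad21 was seen at 59.2% (56.4 to 62.0) of unmatched and 68.3% (67.2 to 69.4) of matched peaks there.

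The median Rad21 peak at unmatched sites stood above 26.7% of the pre-B Rad21 list, and its midpoint was a median of 73 bp from that of the CTCF peak. The Rad21 peaks of highest rank mostly did not belong to the unmatched site alone. The first-ranked Rad21 peak of the whole pre-B list overlapped an unmatched CTCF peak 34195 bp from the start of Il21r (score 126), a cytokine receptor gene, but it also touched a CTCF peak of the cultured pro-B cells that lay 392 bp from the unmatched one. The same was true of a peak in an intron of Gm20388, for which Irf8, a transcription factor gene of pre-B cells, had the nearest protein-coding start, 44794 bp away. There a CTCF peak of cultured cells was 100 bp away and the Rad21 peak stood above 99.1% of its list. In all, 31 of the 583 unmatched peaks shared their pre-B Rad21 peak with a CTCF peak of cultured cells, and 552 did not.

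Of those 552, the ones with the highest-ranked Rad21 peaks, chosen after their values were seen, lay in an intron of Lipc, the hepatic lipase gene (above 92.6% of the Rad21 list), in the Mef2c intron described above, and at the promoter of Klf2, a transcription factor gene of lymphocyte quiescence and trafficking (86.6%). Cxcr7, a receptor for the chemokine CXCL12, came next with an intergenic peak 41436 bp from its start (84.2%), before the peaks near Arid5b (82.1%) and Lmo4 and the promoter of Cradd (80.0%), an adaptor in cell death signalling. At Klf2 the CTCF peak itself was weak, with a score of 131, above 25.0% of the list. The nearest CTCF peak of cultured pro-B cells was 25242 bp away at Klf2, 26319 bp at Cxcr7 and 11642 bp at Lipc. None of Lipc, Mef2c, Klf2 and Cxcr7 had a Rad21 peak on this site in DN or DP cells, whereas the Cradd promoter did in DP cells, above 70.4% of the DP list.

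**Figure D3:**
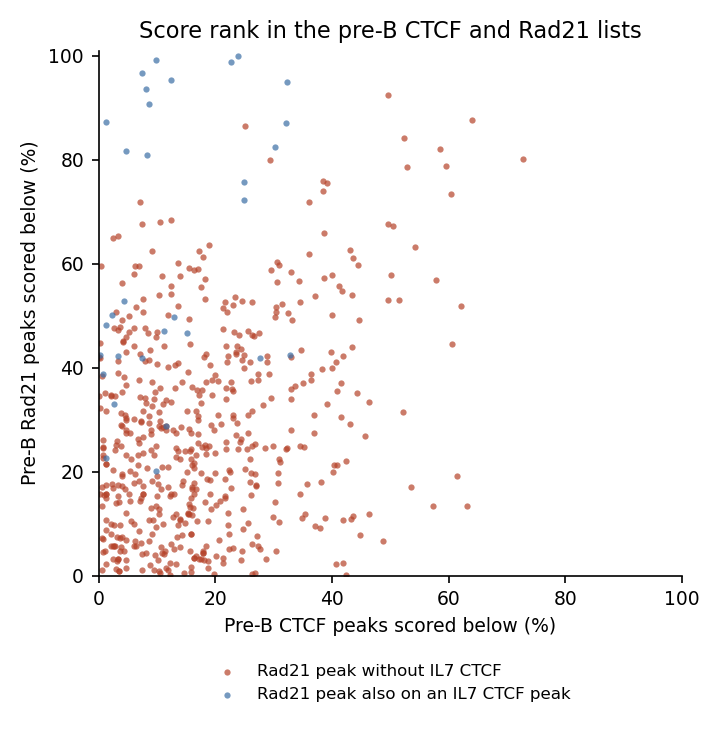
Each point is 1 of the 583 unmatched peaks with Rad21 in pre-B cells, placed by the percentage of the pre-B CTCF list (x axis) and of the pre-B Rad21 list (y axis) that scored lower. The 31 whose Rad21 peak also touched a CTCF peak of cultured cells (blue) include the highest Rad21 ranks.

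The unmatched peaks with Rad21 in all 3 cell types were nearest to Id2, Med30, Ms4a6d, Klf9, Slco3a1, Sox4, Mmadhc, 6230409E13Rik and Ntrk3. The strongest as a CTCF peak was 93207 bp from Id2, an inhibitor of E proteins, with a score of 233. The Sox4 promoter, of a transcription factor gene active in early B and T cells, had a weak CTCF peak (79.5), yet its Rad21 peak ranked high in DP cells. It stood above 98.7% of the Rad21 peaks called in DP, 67.6% of those in pre-B and 69.7% of those in DN cells. A CTCF peak of cultured pro-B cells lay 203 bp from the one at Sox4. The other 3 unmatched peaks with Rad21 in DN cells were nearest to 0610007P08Rik, Gm13691 and Gm13145.

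Among unmatched peaks with Rad21 in DP or DN cells and not in pre-B cells, the 5 highest-scoring were 30439 bp from Xcl1, which encodes a lymphocyte chemokine (216), at the promoter of Qpct (196), in an intron of Fto (196), and at the promoters of Cyp2r1, a vitamin D 25-hydroxylase (167), and Pbx4 (163). The 176 peaks with Rad21 in DP cells alone were at promoters in 59.1% (51.4 to 66.4), against 24.3% (20.1 to 28.9) of the 387 peaks with Rad21 in pre-B cells alone. The latter were more often intergenic, 39.0% (34.1 to 44.1) against 14.8% (9.88 to 20.9). Matched peaks of score bin 1 showed the same order, with 39.6% (36.2 to 43.2) of those with DP Rad21 alone and 13.7% (11.4 to 16.3) of those with pre-B Rad21 alone at promoters, where the unmatched peaks of that bin had 58.5% (49.9 to 66.6) and 26.2% (20.8 to 32.3).

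Unmatched peaks were found at promoters more often than matched peaks. A transcription start lay within 1 kb of 518 of them, or 31.3% (29.0 to 33.6), beside 18.3% over all pre-B CTCF peaks. Another 80 (4.83%) were in exons, 559 (33.8%) in introns and 499 (30.1%) between genes. In score bin 1 the promoter share was 31.2% (28.6 to 33.8) of unmatched and 18.0% (17.1 to 19) of matched peaks, and in bin 2 32.5% (27.5 to 37.7) and 17.3% (16.4 to 18.1). Intergenic shares in bin 1 were 29.7% (27.2 to 32.3) and 38.6% (37.5 to 39.8). The promoter share depended on the distance to the cultured cells' peaks, at 43.97% (38.3 to 49.7) where one lay less than 1 kb away and 28.4% (26.0 to 30.9) elsewhere. The median distance from an unmatched peak to the nearest protein-coding start was 8438 bp, against 11758 bp over the list.

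**Figure D4:**
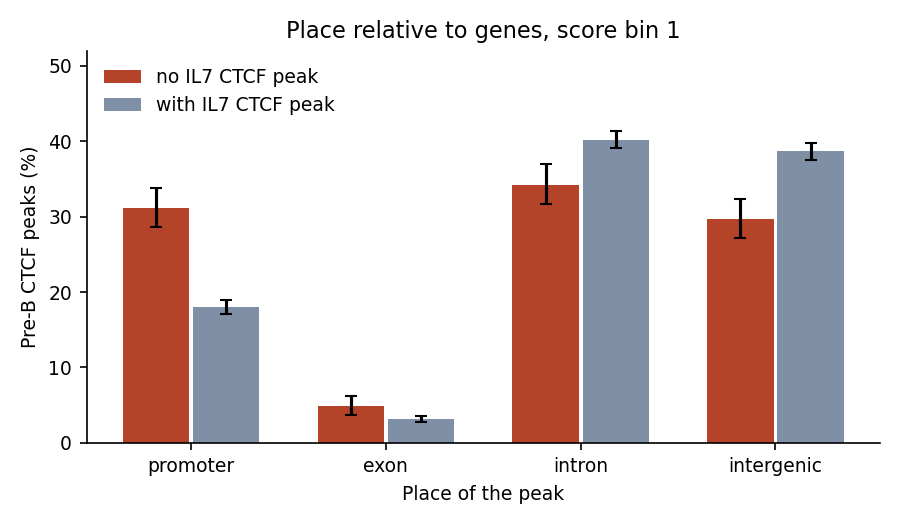
Bars give the percentage of pre-B CTCF peaks of score bin 1 (y axis) in each place relative to genes (x axis), for 1253 unmatched (red) and 6979 matched (grey) peaks, with exact 95% intervals. The unmatched peaks are the higher bar at promoters (31.2% against 18.0%) and the lower one in introns and between genes.

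At like score, the pre-B Rad21 share of unmatched peaks was the higher one at promoters, in introns and between genes. In bin 1, Rad21 in pre-B cells overlapped 29.7% (25.2 to 34.5) of unmatched and 20.4% (18.2 to 22.8) of matched promoter peaks. For intergenic peaks the shares were 34.4% (29.6 to 39.5) and 19.3% (17.8 to 20.9), and for intron peaks 24.9% (20.9 to 29.3) and 18.5% (17.07 to 19.98). Rad21 in DP cells differed by place in both sets and had overlapping intervals within each place, at 34.8% (30.1 to 39.7) and 37.7% (35.0 to 40.5) of promoter peaks and 16.1% (12.5 to 20.3) and 15.02% (13.7 to 16.4) of intergenic peaks. The promoter peaks in both sets were rich in CpG. Within 200 bp around the midpoint, the median ratio of CpG found to that given by the C and G content was 0.624 for unmatched and 0.518 for matched promoter peaks of bin 1, with median GC contents of 57.5% and 57%.

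The highest-scoring unmatched peaks within 1 kb of a protein-coding start, after those of Esrra and Unc93b1, were at Oxa1l (407), needed for insertion of proteins into the mitochondrial inner membrane, and Trim25 (337), a ubiquitin ligase of antiviral signalling. They were followed by Mchr1 (310), Chad (274), Zfp397 (273), Aldh2 (265), Atl2 (257) and Lin54 (233). Of these 10 promoters, 9 had Rad21 in pre-B cells, the exception being Aldh2, and Esrra, Atl2 and Lin54 also had it in DP cells. Most of the 10 fell in bin 3, where 69.9% of matched peaks had Rad21 in pre-B cells. That share covers matched peaks in every place relative to genes and was not taken for promoters alone. At Atl2, which shapes the endoplasmic reticulum, the nearest CTCF peak of cultured pro-B cells was 18 bp away and the DP Rad21 peak stood above 98.1% of its list.

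The CTCF consensus was held by a smaller share of unmatched than of matched peaks, with a level that depended on the mismatches allowed. It was found with at most 2 mismatches in 359, or 21.7% (19.7 to 23.7), beside 48.4% over all pre-B CTCF peaks, and in 6.22% (5.11 to 7.49) of windows of the same width 2000 bp away. Where a peak of cultured cells had to cover 50% of the pre-B peak, the unmatched share was 39.5%. In score bin 1 the consensus was held by 21.6% (19.4 to 24.0) of unmatched and 31.5% (30.5 to 32.6) of matched peaks, and in bin 2 by 22.2% (17.9 to 27.0) and 36.8% (35.7 to 37.8). Among peaks of bin 1 scored at least 100 the intervals overlapped, at 27.7% (21.4 to 34.8) of 184 unmatched and 30.7% (28.4 to 33.1) of 1579 matched peaks. With at most 1 mismatch 2.48% of all unmatched peaks held it, and with 3 mismatches 77.1%. At these limits bin 1 gave 2.79% (1.95 to 3.86) of unmatched and 6.46% (5.90 to 7.06) of matched peaks, and 77.2% (74.8 to 79.5) and 86.4% (85.6 to 87.2), where 38.5% of windows 2000 bp from unmatched peaks matched with 3. Rad21 in pre-B cells overlapped 33.1% (28.3 to 38.3) of unmatched peaks with the consensus and 35.8% (33.2 to 38.4) of those without, and these intervals overlapped. Promoter peaks held it in 18.5% (15.3 to 22.2) and intron peaks in 23.4% (19.98 to 27.17). The Lmo4, Esrra and Cxcr7 stretches printed above belong to peaks with the consensus at 2 mismatches, as do those of Heg1 (score 329), Zfpm1 (279), which encodes a cofactor of GATA factors, and Elk3 (268), an ETS factor gene, of which the Zfpm1 peak had no Rad21 in any cell type, and the Mef2c and Fstl3 stretches to peaks without.

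Short letter strings of 11 other motifs were searched exactly, on both strands, within 200 bp around the midpoint. In score bin 1 the ETS letters CCGGAAGT were in 1.92% (1.23 to 2.84) of unmatched and 0.501% (0.350 to 0.697) of matched peaks. The SP1 letters GGGCGG were in 11.5% (9.78 to 13.4) and 7.64% (7.03 to 8.28), the NFY letters CCAATCA in 2.95% (2.09 to 4.05) and 1.59% (1.31 to 1.91), and the Runx letters TGTGGT in 25.9% (23.4 to 28.4) and 22.2% (21.2 to 23.2). In bin 2 the Runx letters were in 19.3% (15.2 to 23.9) and 19.6% (18.7 to 20.5), and in bin 3 the order turned, at 7.41% (2.06 to 17.9) and 18.6% (17.7 to 19.4). The NFY intervals overlapped in bin 2, at 2.34% (1.01 to 4.56) and 2.00% (1.70 to 2.34), and in bin 3 the letters were in 0 of 54 unmatched peaks, which allows up to 5.56%, and in 1.64% of matched peaks, whereas in bin 2 the SP1 letters were in 11.99% (8.74 to 15.9) and 7.26% (6.70 to 7.86), and the ETS letters, with intervals that met, in 1.46% (0.476 to 3.38) and 0.342% (0.226 to 0.497). Over all pre-B CTCF peaks these 4 were in 0.52%, 7.64%, 1.80% and 18.9%. For the other strings the intervals overlapped, with unmatched and matched shares of 4.07% and 3.21% for EBF1 (CCCNNGGGA), 11.4% and 12.6% for EICE (GGAANNGAA), the composite element of ETS and IRF factors, and 20.7% and 19.2% for the E-box CAGGTG. They were 3.91% and 4.87% for STAT (TTCNNNGAA), 5.99% and 5.27% for AP-1 (TGANTCA), 2.23% and 2.24% for FOXO (TGTTTAC), and 0.399% and 0.158% for NRF1 (CGCATGCG).

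At promoters of bin 1, the SP1 letters were as frequent in both sets, in 24.8% (20.6 to 29.4) and 25.3% (23.0 to 27.8), but the ETS letters were in 5.63% (3.56 to 8.39) of unmatched and 2.14% (1.42 to 3.11) of matched peaks. Of the 31 unmatched peaks with the ETS letters, 29 were at promoters, as were 27 of the 35 matched peaks of bin 1 with them. Besides Smcr7l, Rps18 with Vps52, and Krr1, whose letters are printed above, the promoters with the highest-scoring peaks of this kind were those of Emg1 with Phb2, Ppp1r11 and Cdc16. Rps18 encodes a ribosomal protein, Krr1 and Emg1 act in ribosome assembly, and Cdc16 is a subunit of the anaphase-promoting complex. At these promoters the EICE letters were in a smaller share of unmatched peaks, 4.60% (2.75 to 7.18) against 8.74% (7.23 to 10.4), and the intervals of the NFY letters overlapped, at 4.35% (2.55 to 6.87) and 2.94% (2.08 to 4.03), as did those of the other 7 strings. The matches are letters only, and no ETS factor was measured here.

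**Figure D5:**
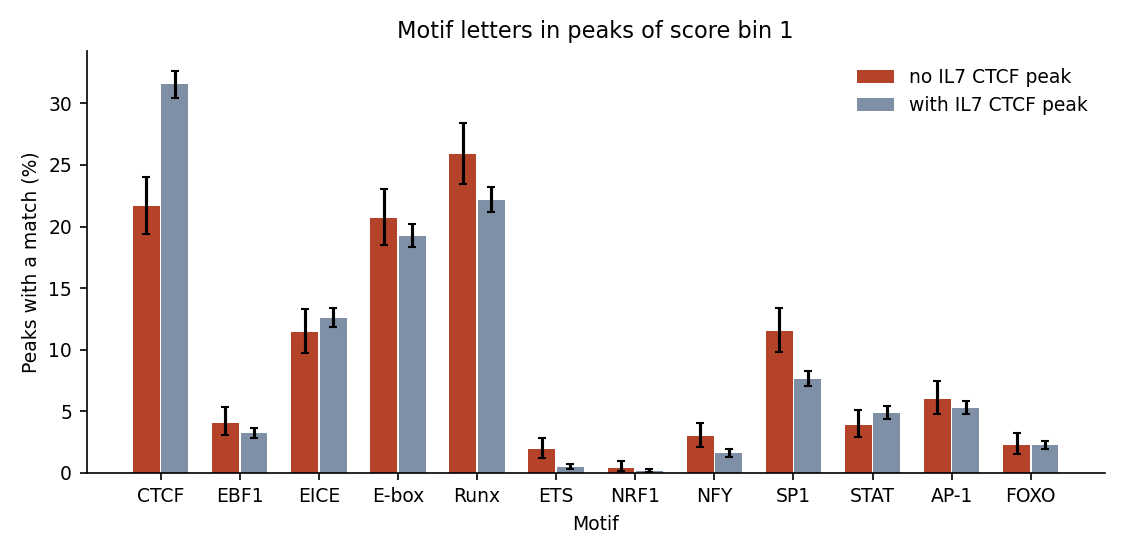
Bars give the percentage of peaks of score bin 1 (y axis) in which each motif (x axis) was found, for unmatched (red) and matched (grey) peaks, with exact 95% intervals. CTCF, searched over the whole peak with at most 2 mismatches, is lower in unmatched peaks (21.6% against 31.5%), and the exact ETS, NFY, SP1 and Runx letters, searched in 200 bp, are higher in this bin, while in bin 2 the intervals of ETS, NFY and Runx met.

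An unmatched peak lay within 10 kb of a start of 1148 of 21418 protein-coding genes, or 5.36%, whereas 58.5% of genes had a pre-B CTCF peak of any kind this near. In the list of V(D)J recombination genes, 7 of 10 had a pre-B CTCF peak of any kind this near. It was 1 of 9 short lists chosen with earlier results known. An unmatched peak was near 4 of its 10 genes. Rag1 had a peak in an intron 3071 bp from its start (score 153), on which Rad21 was called in DP cells alone, and Dntt, encoding terminal deoxynucleotidyl transferase, had one 1739 bp from its start (94.6) with the same Rad21 pattern. Lig4, the ligase of end joining, had a promoter peak (83.9) with Rad21 in pre-B cells, and the peak 4702 bp from Dclre1c, encoding the nuclease Artemis, was at the promoter of the neighbouring gene Meig1 (71.1) with Rad21 in pre-B and DP cells. Rag2, Xrcc4, Xrcc5, Xrcc6, Prkdc and Nhej1 had none.

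Of the 8 genes of CTCF and cohesin, Ctcf itself (109) and Stag1, a cohesin subunit gene (124), had an unmatched peak in an intron, both without Rad21 in any cell type. Among 18 genes of IL7 signalling and its targets, Socs2, which restrains cytokine receptor signalling, had 2 intron peaks (87.99 and 76.28), and Il7r, Stat5a, Stat5b, Cish, Myc, Mycn and Bcl2 had none. Among 15 B-lineage transcription factor genes, Spi1 alone had one, 3585 bp from its start (109), and Ebf1, Pax5, Ikzf1, Foxo1 and Irf4 had none. None of 11 pre-B-cell receptor genes, 13 T-cell marker genes, 4 progenitor marker genes and 6 homing receptor genes had one, and of 9 myeloid and erythroid marker genes, Csf1r had 2. Each of the lists with no unmatched peak had pre-B CTCF peaks of the matched kind, at 7, 8, 3 and 5 of its genes. In the other lists, pre-B CTCF peaks of any kind were near 6 CTCF and cohesin genes and 16 IL7 genes. They were also near 12 B-lineage genes and 7 myeloid and erythroid genes. The Spi1, Socs2 and Csf1r peaks had no Rad21 in any of the 3 cell types.

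Of the antigen receptor loci, Igh and Igk held unmatched peaks. There were 5 among 121 pre-B CTCF peaks in Igh, or 4.13% (1.35 to 9.38), near the 4.02% over the list, and 6 among 68 in Igk, or 8.82% (3.31 to 18.2), an interval that includes it. None were found among 98 in the TCRα/δ locus, which allows a share of up to 3.06%, or among 12 in TCRβ, 4 in Igλ and 4 in TCRγ, where a count of 0 allows up to 25%, 75% and 75%. The strongest in Igh, at chr12:116874241-116874571, had a score of 453 and lay 11600 bp from Ighv8-12, with Rad21 in pre-B cells above 44.6% of its list. The second, at chr12:115693569-115693932 with a score of 326, had no Rad21 in any library. Of the 11 peaks in both loci, 9 (81.8%, 48.2 to 97.7) had Rad21 in pre-B cells, beside 75.3% (68.3 to 81.4) of the 178 matched peaks there. None of the 11 had Rad21 in DN or DP cells, which allows a share of up to 27.3%, and the matched peaks had it in 13.5% and 37.6%. The matched peaks of these loci had the higher CTCF scores, with a median of 366 against 123 for the 11, so these shares are not at like score. In Igk the highest score was 125, at a peak 62 bp from Igkv10-95, and another lay 7 bp from Igkv10-94. Only 75.1% and 61.1% of the 36-base words of these Igkv10 peaks occurred once in the genome.

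Unmatched peaks were spread over all 19 chromosomes, from 2.96% (2.19 to 3.90) of pre-B CTCF peaks on chromosome 14 to 5.57% (4.40 to 6.94) on chromosome 19. While 108 of them lay within 10 kb of another, the same count was not made for matched peaks, so it does not show clustering. The densest window of 1 Mb, on chromosome 17 from 35000001 to 36000000, held 10 among 93 pre-B CTCF peaks, at the H2-Q genes of the major histocompatibility complex and at Bag6, Ly6g6c and other genes nearby. In 5 of the 10, fewer than 50% of the 36-base words occurred once in the genome. The next, on chromosome 19 from 41000001 to 42000000, held 8 among 49, near Dntt, Pik3ap1, an adaptor of B-cell signalling, and Lcor, Slit1, Frat2 and Pgam1, and in none of these 8 did fewer than 50% of the words occur once. A further 5 windows held 7 each, among unequal numbers of pre-B CTCF peaks. One on chromosome 2, with 24 such peaks, had 6 of its 7 nearest to Cdh26, a cadherin gene, and one on chromosome 17, with 46, had 5 of 7 nearest to Fbxo11, a ubiquitin ligase subunit gene. The others were on chromosome 5, around Whsc1, Tacc3 and Fam193a (45 peaks), around Git2, Coq5 and Dynll1 (71), and around Aldh2, Sh2b3 and Hvcn1 (76). Over all unmatched peaks, 48 (2.90%) were mostly of repeated words, against 2.16% of matched peaks. They include peaks around Sp100 and Sp110 on chromosome 1, chosen after their values were seen. The strongest of these (366) lay in an intron of Sp110, 153676 bp from a CTCF peak of cultured cells. Of its words, 27.7% were unique and 64.7% occurred at more than 3 places, the limit of mapping places for a read. The part of mapping in these peaks was not tested.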

How the data were processed

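Peak lists of 5 ChIP-seq libraries were analysed. Per the study's methods, duplicates were removed, reads with at most 3 mapping places were aligned to mm9 by Bowtie, and the authors called peaks against input in MACS (the submitters' processing notes name Bowtie 0.12.9 and MACS 1.4.2). The deposited files hold positions and a score, which grows with depth, so the score was used only within 1 list. Depth is unknown.

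Overlap required 1 bp. Places and genes came from GENCODE vM1 on NCBIM37, with promoters within 1 kb of any transcript start. Percentile is the share of a list scored lower, and intervals are exact Clopper-Pearson at 95%. The genome used carries no repeat masking, so repetition was measured as 36-base words found once. Spi1 and Syk were matched through RefSeq synonyms.

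Peaks and lists were chosen with earlier results of these data known. Named are the 10 highest-scoring peaks of all, with Rad21 in all 3 libraries, with Rad21 in pre-B alone, and at protein-coding promoters, the 5 highest with Rad21 in thymocytes alone, those in antigen receptor loci or within 10 kb of listed genes, the 5 densest 1 Mb windows (ties kept), and 3 on each side of the overlap limit.

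Alternatives were no peak of cultured cells within 1 kb, 50% cover, scores of at least 100, lists of equal length, chromosome X added, other promoter and motif limits. Unique words, and Rad21 peaks touching no CTCF peak of cultured cells, were added after the data were seen. Overlap, motif search, intervals and word counts were tested on simulated data. Software was samtools 1.23.1, pysam 0.24.0, numba 0.67.0, pandas 2.3.3, scipy 1.17.1, numpy 2.4.6 and matplotlib 3.10.9 under Python 3.11.15.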

Additional observations from a re-analysis of the deposited data

How the results depend on the processing

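No paired analysis was possible because each group had 1 library and no result came from a test between groups, and leaving out a replicate was not possible for the same reason. Of 63 alternatives, 36 moved a value beyond its counting interval or, for a number of peaks, by over 1.5 times. Requiring a peak of cultured cells to cover 50% of the pre-B peak gave 5125 unmatched peaks (12.4%), with Rad21 at 57.0% in pre-B, 15.3% in DN and 43.7% in DP cells, 25.3% at promoters, 39.5% with the CTCF consensus and a median rank above 32.5% of the list. Limiting the list of cultured cells to as many peaks as the pre-B list gave 6270 (15.2%), with Rad21 at 32.4%, 1.53% and 24.8%, 26.8% at promoters, 25.9% with the consensus and a median rank of 14.4%. Pre-B scores of at least 100 left 587 unmatched peaks (1.69%), with Rad21 in pre-B cells at 49.4% and a median rank of 23.5%. With no peak of cultured cells within 1 kb the share was 3.28% and the promoter share 28.4%. Peaks with at least 90% unique words, added after the data were seen, gave 3.7% unmatched, Rad21 at 39.5% in pre-B and 25.5% in DP cells, 33.7% at promoters and 24.3% with the consensus. Rad21 lists of equal length gave 1.87% in pre-B and 3.32% in DP cells, and Rad21 cover of 50% gave 20.2% in DP cells. Promoters within 2.5 kb came to 40.1% and protein-coding ones to 28.0%. The consensus share was 2.48% with at most 1 mismatch, 77.1% with 3, 15.6% with the study's EMBL_M1 motif and 15.04% within 200 bp around the midpoint.

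In score bin 1, with the list of cultured cells limited to equal length, Rad21 in pre-B cells overlapped 23.0% (21.8 to 24.4) of unmatched and 18.5% (17.3 to 19.7) of matched peaks, and promoters made up 25.6% and 14.7%. With at least 90% unique words, these were 33.3% (30.3 to 36.4) and 20.8% (19.7 to 21.8), and 34.1% and 19.3%. The consensus share of peaks scored at least 100 was 27.7% and 30.7%, with overlapping intervals. Absence of a peak means only that none passed that library's limit. Unknown depth, a single library for each cell type and lists that end at different scores limit every share given.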
